A study of Mus musculus with 179 samples.

Results

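The nucleus accumbens (NAc) of adult male mice that had been reared in standard nests was compared between males defeated as adults and males kept as adult controls. The comparison holds 10 libraries, 6 labelled Defeat and 4 labelled Control in the adult condition, all with the early life condition Standard; they were chosen by these labels and make up 10 of the 179 samples of the series and 10 of its 29 male NAc libraries. Every library was made from male C57Bl6/j tissue taken in the light part of the day, 24 h after behavioural testing, and each pooled punches of 3 mice. The other 19 male NAc libraries came from males exposed to early life stress (ELS), on postnatal days 10 to 20 (4 controls, 6 defeat) or on postnatal days 2 to 12 (4 controls, 5 defeat). The NAc labels write only "Defeat"; the age of the mice in weeks and their behaviour after defeat are not analysed here, so no library can be placed as susceptible or resilient. All male tissue came from 1 cohort, and nothing ties a pool to a cage or day, so the p-values below measure the spread between these pools.

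The NAc is the ventral part of the striatum. Most of its neurons are GABAergic medium spiny neurons (MSNs), which receive dopamine from the ventral tegmental area and glutamate from cortex, hippocampus and amygdala, and which are grouped by their dopamine receptors into those of the direct and of the indirect pathway. In chronic social defeat an adult male meets aggressive males repeatedly, and the NAc is one of the regions most studied for its lasting response, including in immediate early genes, which neurons transcribe within minutes of activity, and in the vessels of the blood-brain barrier. The comparison asks what such stress leaves in the NAc transcriptome of males without a history of early stress.

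Values are normalised reads, that is, reads per gene divided by 1 factor per library, and are compared between libraries for 1 gene, not between genes. The 10 libraries held 13.6 to 20.7 M reads over the 16239 genes of the table used here, and 1 read was worth 0.894 to 1.40 normalised reads. The markers of the dissection were present in every library: the MSN phosphoprotein Ppp1r1b lay between 34764 and 51682 normalised reads, the indirect-pathway receptor Adora2a between 9447 and 13708. Drd1, Drd2, Tac1 and Pdyn were not analysed here. The Y-linked Ddx3y lay between 1911 and 2180, and Xist, the RNA of the inactive X chromosome, between 1.40 and 12.8, in the 10 libraries labelled male.

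The libraries differed in neighbouring tissue. Tbr1, a transcription factor of cortical glutamate neurons, lay at 930.8, 131.7, 22.4 and 82.1 normalised reads in controls 1 to 4 and between 50.5 and 338.4 in the defeat libraries (median 151.2). Neurod6, also of cortical neurons, lay at 156.6, 75.6, 7.47 and 18.6 in the controls and between 11.2 and 76.8 in the defeat libraries (median 43.3). Control 1 was thus the library highest in both genes, controls 3 and 4 were low in both, and defeat 5 was the defeat library highest in Tbr1. Tmem212, a gene of ciliated ependymal cells that line the ventricle, lay at 61.8, 9.13, 51.4 and 61.3 in the controls and between 17.7 and 75.1 in the defeat libraries. The 6 tested genes of the cortical list summed to 1000 to 2932 normalised reads in controls and 1020 to 1767 in defeat libraries, and the 6 of the choroid plexus and ependyma list to 254.3 to 552.2 and 235.5 to 660.6. The groups overlapped in all of these. For the blood and immediate early genes, folds are also given without control 1 and defeat 5, a choice made after seeing the data. Defeat 5 was not the defeat library highest in the cortical list, which summed to 1767 in defeat 1 and 1714 in defeat 5.

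**Figure D1:**
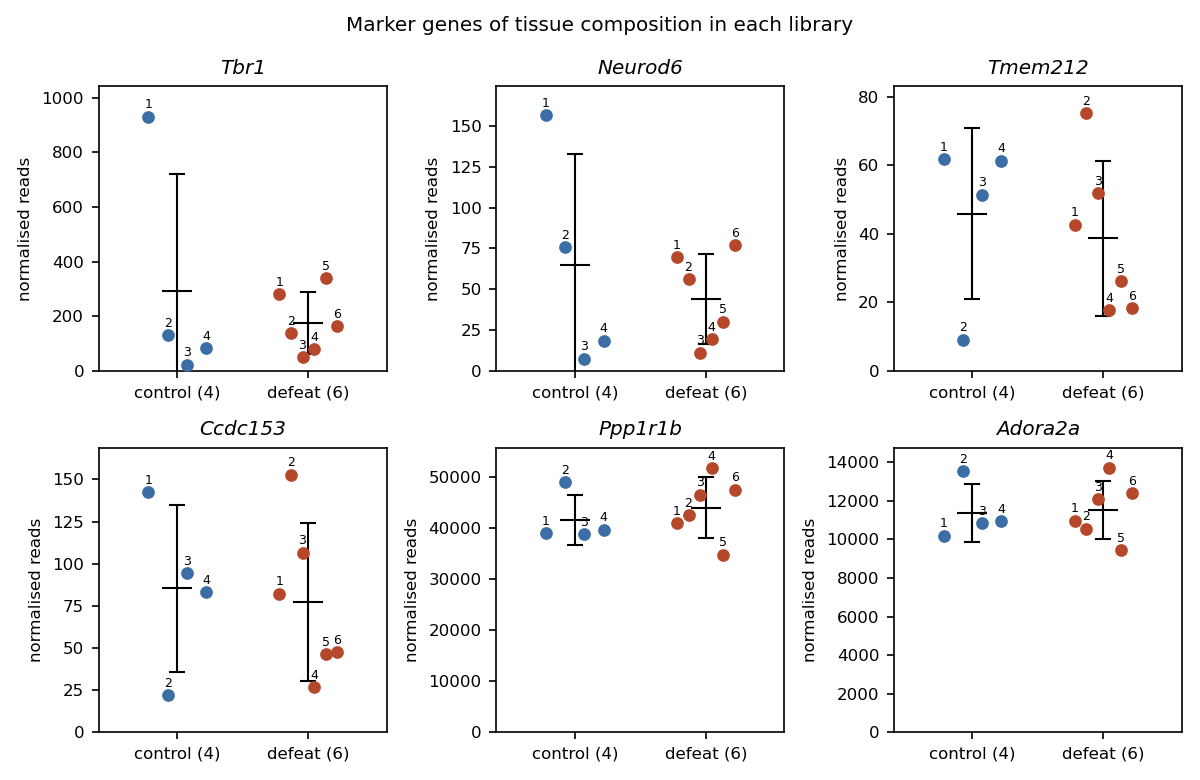
Normalised reads of 2 cortical genes (Tbr1, Neurod6), 2 ependymal genes (Tmem212, Ccdc153) and 2 MSN genes (Ppp1r1b, Adora2a) in each library, numbered by replicate, with the mean and SD of the 4 control and 6 defeat libraries. Control 1 stands apart in Tbr1 at 930.8, while Ppp1r1b stays between 34764 and 51682 in all 10 libraries.

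Across the transcriptome, no gene separated the groups beyond the correction for multiple tests. With limma on log2(normalised reads + 1) over the 14000 genes of highest mean, 0 genes passed an adjusted p of 0.05 (0.00%), and the smallest adjusted p was 1. At an unadjusted p under 0.05 there were 474 genes (3.39%), 263 higher (1.88%) and 211 lower (1.51%) after defeat. On whole reads, edgeR called 0 genes with 413 at an unadjusted p under 0.05, and DESeq2 called 0 with 266. The share of these that were higher was 55.5% with limma, 48.7% with edgeR and 45.1% with DESeq2, so the balance of directions differed between the tools. All 6 defeat libraries lay above all 4 controls in 48 genes (0.343%) and below them in 26 (0.186%).

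Most genes lay close to equality. The median log2 fold change was 0.01, with quartiles of -0.07 and 0.08, and 52.5% of all genes tested were above 0. Genes of a list can vary together between pools, so list counts above or below 0 are not separate counts. Among the 7338 genes with a mean of at least 100 normalised reads the median standard error (SE) of a log2 fold change was 0.07. The 5th and 95th percentiles of their fold changes were -0.11 and 0.12. In that range of expression 8 genes had a log2 fold change above 0.5 in size, and they are named here after their values were seen: the 4 globin genes Hbb-b1, Hba-a2, Hbb-b2 and Hba-a1 and the matrix gene Hapln4 were higher, and the transcription factors Egr2, Fos and Nr4a2 were lower. Only 2 of the 8, Hbb-b1 and Hba-a2, had a log2 fold change above 1. Fos (-0.68 ± 0.33, SE) and Egr2 (-0.71 ± 0.33) lay only slightly more than 2 standard errors from 0. Hapln4 (0.59 ± 0.38) and Nr4a2 (-0.86 ± 1.12) lay within 2 standard errors of 0, and the highest libraries of Hapln4 and Nr4a2 were among those described above. Control 1 and defeat 5 held the most Hapln4 of their groups, at 790.3 and 1205 normalised reads, and control 1 held 640.8 of Nr4a2.

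The transcripts of red blood cells were higher after defeat than in controls, 2.10 times as high for the 4 globins together. Of the 10 genes of the blood list 5 were tested. They are the alpha globins Hba-a1 and Hba-a2 and the beta globins Hbb-b1 and Hbb-b2, which make the chains of haemoglobin, and Alas2, the haem synthesis enzyme of red cell precursors. Reads of globin in brain tissue are usual where vessels still hold blood. All 5 of these were higher, with a median log2 fold change of 0.99 against 0.01 over all genes tested. An unadjusted p under 0.05 was reached by 5 of 5, where 1.88% of all genes were higher at that level. In 4 of 5 all defeat libraries lay above all controls, where 0.343% of all genes did. The list was chosen with earlier results of these data known. Its 4 globins are near copies in pairs, as described below, so the 5 genes are not separate counts against those shares. None of the 5 passed the adjusted p of limma.

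The promoters of the red cell genes that could be matched by symbol are shown first, since the alpha globin copies are nearly the same here too. Each is the 150 bases before the start, from RefSeq on GRCm38.p6, 5′ to 3′ on the strand of the gene, with matches on either strand in capitals for the letters CCAAT, for the letters CACCC and for the letters GATAA, which are known in red cell promoters as the CCAAT box, the CACCC box and the core of GATA sites. Hba-a1 is at chr11:32283522-32283671 and Hba-a2 at chr11:32296342-32296491, both on the plus strand, and Alas2 is at chrX:150547267-150547416 on the plus strand.
Hba-a1: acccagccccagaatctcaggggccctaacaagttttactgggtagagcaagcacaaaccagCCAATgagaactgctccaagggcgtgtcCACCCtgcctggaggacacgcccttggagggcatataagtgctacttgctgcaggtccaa
Hba-a2: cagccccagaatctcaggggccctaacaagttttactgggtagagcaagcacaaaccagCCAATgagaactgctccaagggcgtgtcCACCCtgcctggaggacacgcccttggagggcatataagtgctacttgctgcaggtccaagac
Alas2: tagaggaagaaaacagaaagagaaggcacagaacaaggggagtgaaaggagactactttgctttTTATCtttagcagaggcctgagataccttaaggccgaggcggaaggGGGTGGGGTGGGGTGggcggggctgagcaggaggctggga
The 2 alpha globin stretches share a run of 147 of their 150 bases, offset by 3. Each holds 1 CCAAT, 88 bases before the start in Hba-a1 and 91 in Hba-a2, and 1 CACCC. Alas2 holds 1 GATAA, on the other strand, 86 bases before its start, and 3 CACCC that adjoin each other. Of 32817 RefSeq promoter stretches of this length, 24.5% hold CCAAT, 37.4% CACCC and 13.4% GATAA, on either strand, so these letters are common and their presence is a description. The genes lie 12.0 kilobases apart on chromosome 11, and their coding sequences are also near copies: 428 of 429 bases are the same between Hba-a1 and Hba-a2 and 443 of 444 between Hbb-b1 and Hbb-b2, and 87.1% and 92.9% of 50-base windows occur unbroken in the partner. The sources do not say how reads were split between such copies, so each copy is uncertain alone and the sum of the 4 is the firmer value.

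The 4 globin genes summed to 1223, 1481, 1040 and 1057 normalised reads in controls 1 to 4. In the 6 defeat libraries the sum ran from 1759 to 4232 with a median of 2016. Every defeat library lay above every control, and defeat 5 and defeat 2 stood highest, while the other 4 lay between 1759 and 2066. The group means were 1200 ± 205 (SD, n = 4) in controls and 2522 ± 972 (SD, n = 6) after defeat, 2.10 times as high.

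Hbb-b1, the beta globin with the most reads, lay at 561.2, 631.2, 443.7 and 513.3 normalised reads in the controls and between 774.7 and 1812 after defeat, with a median of 933.0. The groups did not overlap, and the log2 fold change was 1.02 ± 0.24 (SE), with an unadjusted limma p of 0.000376. Hba-a2 lay at 235.4, 293.4, 209.2 and 192.6 in the controls and between 372.8 and 920.6 after defeat, with a median of 394.4; these groups did not overlap either, and the log2 fold change was 1.08 ± 0.26. For Hba-a1 the log2 fold change was 0.95 ± 0.25, again without overlap. Hbb-b2, at 0.99 ± 0.26, had 5 of 6 defeat libraries above all controls, since defeat 1 at 121.0 lay under control 2 at 130.4.

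Alas2, which makes the precursor of haem in red cell precursors and is no copy of a globin, was also higher. It lay at 51.0, 57.4, 43.0 and 52.5 normalised reads in the controls and between 66.8 and 149.1 after defeat, with a median of 83.1. The groups did not overlap, and defeat 5 and defeat 2 were again the highest. Its log2 fold change was 0.86 ± 0.26, with an unadjusted limma p of 0.00303. Without control 1 and defeat 5 the median of the list was 0.79, and Hbb-b1 stood at 0.89 and Alas2 at 0.72.

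White cell genes were scarce in both groups. The 5 genes used of the peripheral leukocyte list, 4 of them above 0 and with a median of 0.34, summed to 118.2 to 189.7 normalised reads in controls and 141.8 to 181.3 after defeat, with Ptprc, the common leukocyte antigen, at 124 ± 22.3 (SD, n = 4) and 116 ± 13.6 (SD, n = 6). Ptprc thus supplied most of the sum. Cd52, a surface protein of lymphocytes, was higher at 23.3 ± 4.25 against 31.9 ± 7.99. Lcn2, also in the glucocorticoid-responsive list, had the highest log2 fold change of the 5 (1.08 ± 1.00), at 2.70 ± 2.54 against 7.27 ± 6.42 normalised reads. The T cell gene Cd3e lay at no more than 1.40 normalised reads in any library. Endothelial genes summed to 16220 to 18272 in controls and 16443 to 18024 after defeat. In bulk tissue, more or fewer cells of a type and more or less RNA per cell cannot be told apart.

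**Figure D2:**
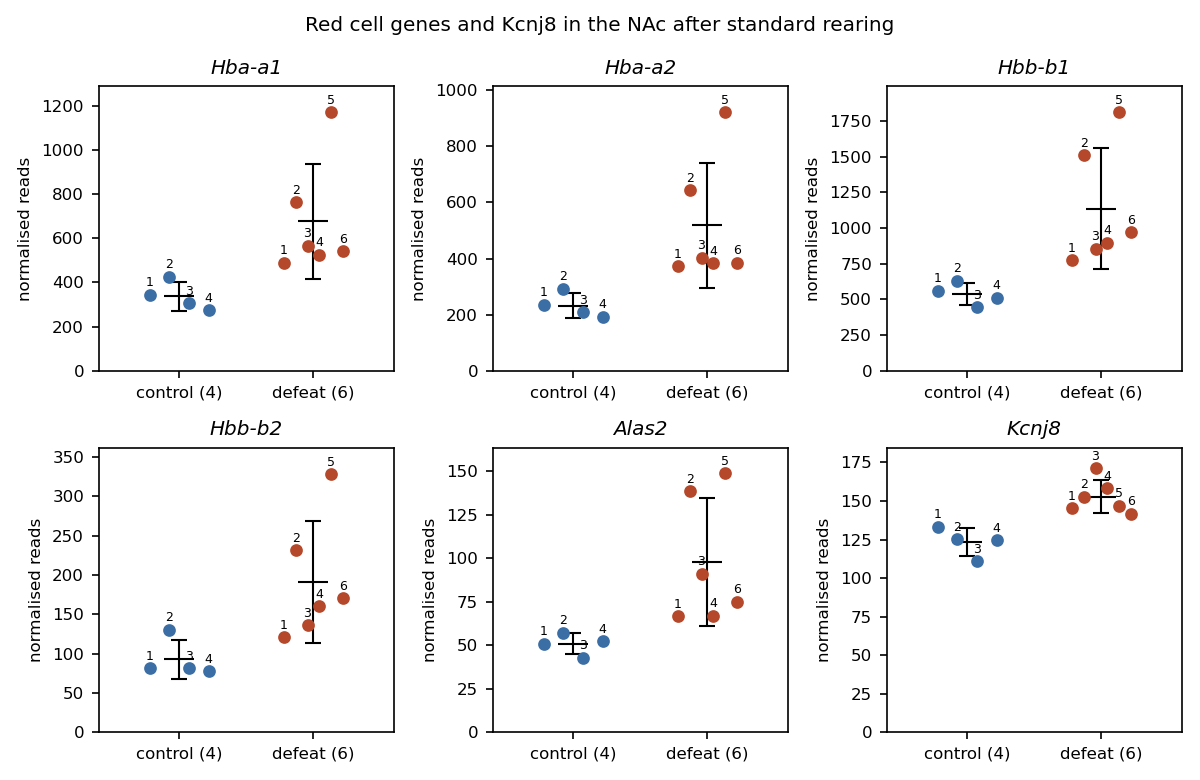
Normalised reads of the 4 globin genes, Alas2 and Kcnj8 in each library, numbered by replicate, with the mean and SD of the 4 control and 6 defeat libraries. Defeat 5 and defeat 2 are highest in the 5 red cell genes but not in Kcnj8, where all defeat libraries lie between 141.8 and 171.2 and all controls between 111.2 and 133.4.

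Among vessel genes, 1 stood apart. Kcnj8 encodes the pore of a potassium channel that closes with ATP, and in brain it is a marker of pericytes, the contractile cells on capillaries. It lay at 133.4, 125.2, 111.2 and 124.8 normalised reads in the controls and between 141.8 and 171.2 after defeat, with a median of 149.97. Every defeat library was above every control, and the log2 fold change was 0.30 ± 0.10, with an unadjusted limma p of 0.00344. Its order of libraries differed from that of the globins, with defeat 3 highest and defeat 5 in the middle.

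Abcc9 encodes the regulatory subunit of the same channel and is the neighbour of Kcnj8, 16.2 kilobases away on chromosome 6. It lay at 354.4, 346.9, 305.4 and 302.1 normalised reads in the controls and between 328.3 and 396.0 after defeat, with 5 of 6 defeat libraries above all controls. The groups overlapped, and its log2 fold change was 0.16 ± 0.09, with an unadjusted limma p of 0.0927. Leaving out each of the 10 libraries in turn gave a p under 0.05 in 0 of 10 fits (highest p 0.232). The other 4 tested genes of the pericyte and smooth muscle list overlapped between groups as well. They were the contractile genes Acta2 (0.06 ± 0.22), Tagln (0.07 ± 0.11) and Myh11 (0.12 ± 0.20) and the peptidase Anpep (-0.03 ± 0.16). The list median was 0.10, with 5 of 6 above 0.

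Of the 12 tested endothelial genes, 4 were above 0 and 8 below, with a median of -0.03, and 0 had an unadjusted p under 0.05. Cldn5, the tight junction protein that seals the blood-brain barrier and that has been studied in the NAc after defeat, lay between 1165 and 1372 normalised reads in the controls and between 851.1 and 1320 after defeat, with a median of 1124. In 5 of 6 defeat libraries it was under all controls, at a log2 fold change of -0.18 ± 0.12. Ocln, another tight junction protein, stood at -0.16 ± 0.09. The general endothelial genes Pecam1 (0.02 ± 0.06) and Flt1 (0.02 ± 0.09) were near 0. Plat, the tissue plasminogen activator, which vessels and neurons both make, was among the genes of smallest p on the lower side: it lay at 901.2, 989.8, 987.3 and 987.2 in the controls and between 818.9 and 911.0 after defeat, with 5 of 6 under all controls. Its log2 fold change was -0.15 ± 0.05, with an unadjusted limma p of 0.00265.

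Immediate early genes were mostly lower after defeat, 24 h after the last behavioural test. Of the 23 tested of 36 listed, 18 were below 0 and 5 above, where 52.5% of all genes tested were above 0. The list median was -0.13 against 0.01 over all genes tested. An unadjusted p under 0.05 was reached by 3 of 23, all lower, where 1.51% of all genes were lower at that level: Egr2, the early growth response factor, Btg2, an antiproliferative gene, and Dusp1, the phosphatase that switches off MAP kinases. Leaving out each of the 10 libraries in turn kept an unadjusted p under 0.05 in 8 of 10 fits for Btg2 (highest p 0.0564), in 5 of 10 for Egr2 (highest p 0.182) and in 3 of 10 for Dusp1 (highest p 0.194). In 0 of 23 were the groups apart, and Arc, Npas4, Nr4a1 and Bdnf were not analysed here.

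The promoters of 2 of the lower genes are shown because immediate early genes are known for sites bound by the cAMP response factor CREB. Each is the 150 bases before the RefSeq start on GRCm38.p6, with TGACG, the core of that site, in capitals on either strand: Fos on the plus strand at chr12:85473740-85473889, Dusp1 on the minus strand at chr17:26508473-26508622.
Fos: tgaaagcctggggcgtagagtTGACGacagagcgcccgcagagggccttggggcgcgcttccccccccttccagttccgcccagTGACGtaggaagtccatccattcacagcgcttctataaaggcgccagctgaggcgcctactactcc
Dusp1: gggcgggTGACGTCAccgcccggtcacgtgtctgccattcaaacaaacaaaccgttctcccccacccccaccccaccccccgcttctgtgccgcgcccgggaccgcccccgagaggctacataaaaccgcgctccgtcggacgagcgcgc
Dusp1 holds the full palindrome TGACGTCA, which 1.36% of 32817 promoter stretches hold, while Fos holds TGACG 2 times; 13.3% of the stretches hold TGACG on either strand. The same search found TGACG in the stretch of Junb and not in that of Btg2. Egr2 has several RefSeq starts. TGACG was absent from the stretches of its starts 1 and 2 and present in those of starts 3, 4 and 5. These are matches of letters and say nothing of binding in this tissue.

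Fos, the reference marker of recent neuronal activity, lay at 182.6, 224.3, 493.2 and 360.1 normalised reads in controls 1 to 4 and between 112.6 and 301.9 after defeat, with a median of 190.1. Controls 3 and 4 were the highest libraries and controls 1 and 2 lay within the range of the defeat libraries. The log2 fold change was -0.68 ± 0.33, with an unadjusted limma p of 0.0545. Egr2 lay at 167.4, 211.3, 451.2 and 355.7 in the controls and between 124.9 and 207.2 after defeat, with a median of 174.0. Control 1 lay among the defeat libraries and the other 3 controls above them all, and the log2 fold change was -0.71 ± 0.33.

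Btg2 lay at 306.1, 306.5, 419.4 and 418.1 normalised reads in the controls and between 220.6 and 345.8 after defeat, with a median of 277.9; 4 of 6 defeat libraries were under all controls. Its log2 fold change was -0.36 ± 0.13, with an unadjusted limma p of 0.0108. Dusp1 stood at 803 ± 111 (SD, n = 4) against 673 ± 106 (SD, n = 6), and Junb, a partner of Fos in the AP-1 factor, at 1833 ± 442 against 1466 ± 186. In Junb, too, controls 3 and 4 were highest, at 2358 and 2013.

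The other members were spread from lower to higher, and 0 of them had an unadjusted p under 0.05. Among the transcription factors Egr1 stood at -0.23 ± 0.17, Fosl2 at -0.32 ± 0.21, Egr4 at -0.19 ± 0.19 and Nr4a3 at -0.23 ± 0.29. Arl4d, a small GTPase, stood at -0.23 ± 0.13 with 5 of 6 defeat libraries under all controls. On the higher side, Maff stood at 0.27 ± 0.20 and Trib1 at 0.16 ± 0.11. Fosb, whose splice form ΔFosB is known to accumulate in the NAc with repeated stress, lay at 499 ± 149 against 443 ± 37.5, a log2 fold change of -0.13 ± 0.17. Plk2 (-0.00 ± 0.06), Ier5 (0.00 ± 0.09) and Homer1 (-0.05 ± 0.10), later or broader activity genes, had log2 fold changes within 1 standard error of 0. In Fos, Egr2 and Junb the SD of the controls (141, 131 and 442) was as large as the difference between the group means or larger. Controls 3 and 4, the highest in these genes, were also the lowest of the controls in Tbr1 and Neurod6, and the highest of them in the calcitonin receptor gene Calcr, at 608.1 and 469.5 against 173.6 and 273.9 in controls 1 and 2. The part of these differences between punches in the immediate early genes was not tested. Without control 3 the log2 fold change of Fos was -0.42, the nearest to 0 of the 10 libraries left out in turn, and without control 1 and defeat 5 it was -0.96 and that of Btg2 -0.48.

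**Figure D3:**
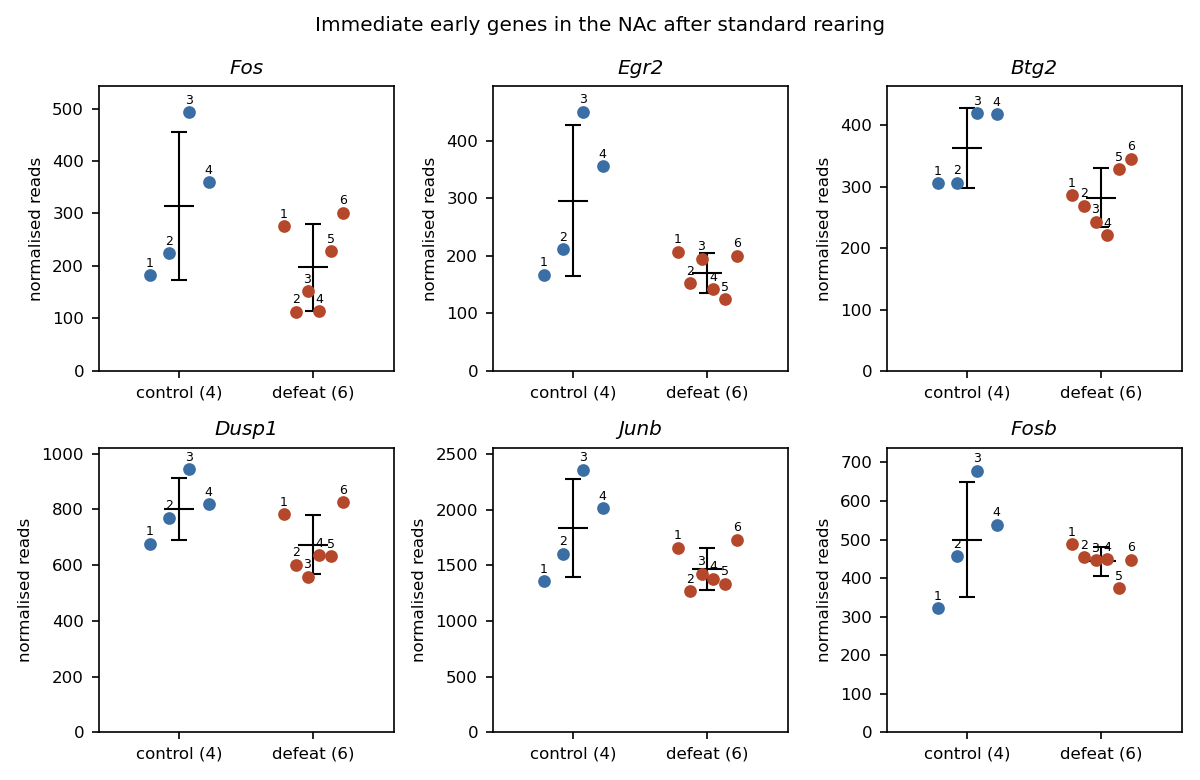
Normalised reads of 6 immediate early genes in each library, numbered by replicate, with the mean and SD of the 4 control and 6 defeat libraries. Controls 3 and 4 are the highest libraries of the plot in Fos, Egr2, Btg2 and Junb, and the groups overlap in all 6 genes.

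The identity genes of the MSNs were close to level. Of the 11 tested shared MSN genes 11 were above 0, where 52.5% of all genes were. Their median log2 fold change was only 0.04 with a range from 0.00 to 0.10, and 0 of 11 had an unadjusted p under 0.05. After defeat in ELS P2-12, 11 of 11 were below 0. Ppp1r1b, or DARPP-32, the phosphoprotein that integrates dopamine and glutamate signals, lay at 41512 ± 4933 (SD, n = 4) against 43945 ± 5898 (SD, n = 6). Penk, the enkephalin precursor of the indirect pathway, stood at 0.03 ± 0.10, and Adora2a, its adenosine receptor, at 0.02 ± 0.12. For the direct pathway, the muscarinic receptor Chrm4 stood at 0.03 ± 0.11.

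Peptides, transmitter receptors and interneuron genes gave no gene past an unadjusted p of 0.05 in these lists. Of 11 peptide and reward receptor genes 7 were above 0, among them Oprd1, the delta opioid receptor (0.15 ± 0.13), with Drd3, the dopamine D3 receptor, at -0.00 ± 0.16. Of 13 glutamate receptor genes 7 were above 0 (median 0.00) and of 11 GABA receptor genes 6 (median 0.01). All 4 tested interneuron genes were above 0, among them Slc5a7, the choline transporter of cholinergic interneurons, at 0.09 ± 0.08. Drd5, a dopamine receptor outside the lists and named after its values were seen, lay between 48.6 and 58.0 normalised reads in controls and between 55.8 and 77.6 after defeat, with a log2 fold change of 0.38 ± 0.14.

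Of the 12 listed genes of the stress hormone system 5 were tested. An unadjusted p under 0.05 was reached by 1 of them, on the higher side, where 1.88% of all genes were higher at that level. Crhr1, the receptor of corticotropin-releasing factor, lay at 298.0, 249.1, 227.0 and 263.8 normalised reads in the controls and between 276.2 and 335.1 after defeat, with a median of 309.5. In 4 of 6 defeat libraries it was above all controls, and the log2 fold change was 0.25 ± 0.09, with an unadjusted limma p of 0.0129. Leaving out each of the 10 libraries in turn kept the unadjusted limma p of Crhr1 under 0.05 in 9 of 10 fits (highest p 0.0755). The mineralocorticoid receptor Nr3c2 stood at 0.00 ± 0.06. Hsd11b1, which regenerates active glucocorticoid in tissue, stood at -0.34 ± 0.18.

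Of the 14 tested glucocorticoid-responsive genes, 8 were above 0 and 6 below, with a median of 0.01. Fkbp5, the chaperone that dampens the glucocorticoid receptor and that the hormone induces, lay at 1573 ± 165 (SD, n = 4) in controls and 1785 ± 258 (SD, n = 6) after defeat, a log2 fold change of 0.18 ± 0.10. Per1 (-0.04 ± 0.09), Pdk4 (0.00 ± 0.08) and Errfi1 (-0.00 ± 0.05) lay within 1 standard error of 0, and Dusp1, which is in both this list and the immediate early list, was the 1 of 14 under an unadjusted p of 0.05. Sgk1 and Tsc22d3 were not analysed here. Of 8 clock genes 5 were above 0, with Bhlhe41, a repressor of the clock, at 0.14 ± 0.07 and Arntl, which activates it, at -0.13 ± 0.08. Bhlhe41 had an unadjusted limma p of 0.0461, which stayed under 0.05 in 6 of 10 fits without 1 library (highest p 0.462).

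Myelin genes were all slightly lower in the mean after defeat. Of 10 tested 10 were below 0, where 52.5% of all genes were above it. Their median was -0.10, and 0 of 10 had an unadjusted p under 0.05. The 10 can vary together between pools and are not separate counts. Mbp, myelin basic protein, lay at 84590, 81656, 86770 and 90953 normalised reads in the controls and between 67047 and 90615 after defeat, with a median of 79390. Defeat 4 was the lowest and 3 of 6 defeat libraries were under all controls, and the log2 fold change was -0.13 ± 0.09. Mobp, another myelin protein, stood at -0.15 ± 0.09, and Ermn, of the outer myelin loops, at -0.19 ± 0.11. The oligodendrocyte precursor list had a median of -0.04, with Pdgfra at -0.06 ± 0.05.

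Glial and immune lists held few differences. Astrocyte genes had a median of 0.00, with 5 of 10 above 0, and Aqp4, the water channel of their endfeet, at -0.03 ± 0.07. Of 9 microglial genes 6 were below 0 (median -0.01); Itgam, the integrin chain CD11b, was lower at 952 ± 21.98 (SD, n = 4) against 879 ± 69.1 (SD, n = 6), while Cx3cr1 (-0.02 ± 0.06) and Tmem119 (-0.01 ± 0.07) were level. Of 14 inflammation genes 10 were above 0, with a median of 0.06. Il1r1, the receptor of interleukin-1, lay at 104.7, 88.7, 66.3 and 56.9 normalised reads in the controls and between 93.3 and 125.2 after defeat; control 1 was inside the defeat range and controls 3 and 4 were the lowest. Its log2 fold change was 0.42 ± 0.14, with an unadjusted limma p of 0.00599. The cytokines Il6 and Tnf were at or near 0, at no more than 2.80 normalised reads in any library. The interferon genes were divided, 4 above and 3 below 0, with Isg15 at -0.25 ± 0.14 and Irf7 at 0.22 ± 0.12.

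Heat shock genes were all below 0 by little, 11 of 11, with a median of -0.04. Oxidative phosphorylation genes were mostly above it, 10 of 12, with a median of 0.03, where 52.5% of all genes were above 0. In neither list did a gene reach an unadjusted p under 0.05. Of 24 tested genes that have been studied in the NAc after social defeat, 9 were above 0 and 15 below, with a median of -0.02, and 0 had an unadjusted p under 0.05. Among them the DNA methyltransferase Dnmt3a stood at 0.06 ± 0.06, the histone methyltransferase Ehmt2 at 0.04 ± 0.06, the small GTPase Rac1 at 0.06 ± 0.05 and the chromatin remodeller Baz1a at -0.19 ± 0.11.

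**Figure D4:**
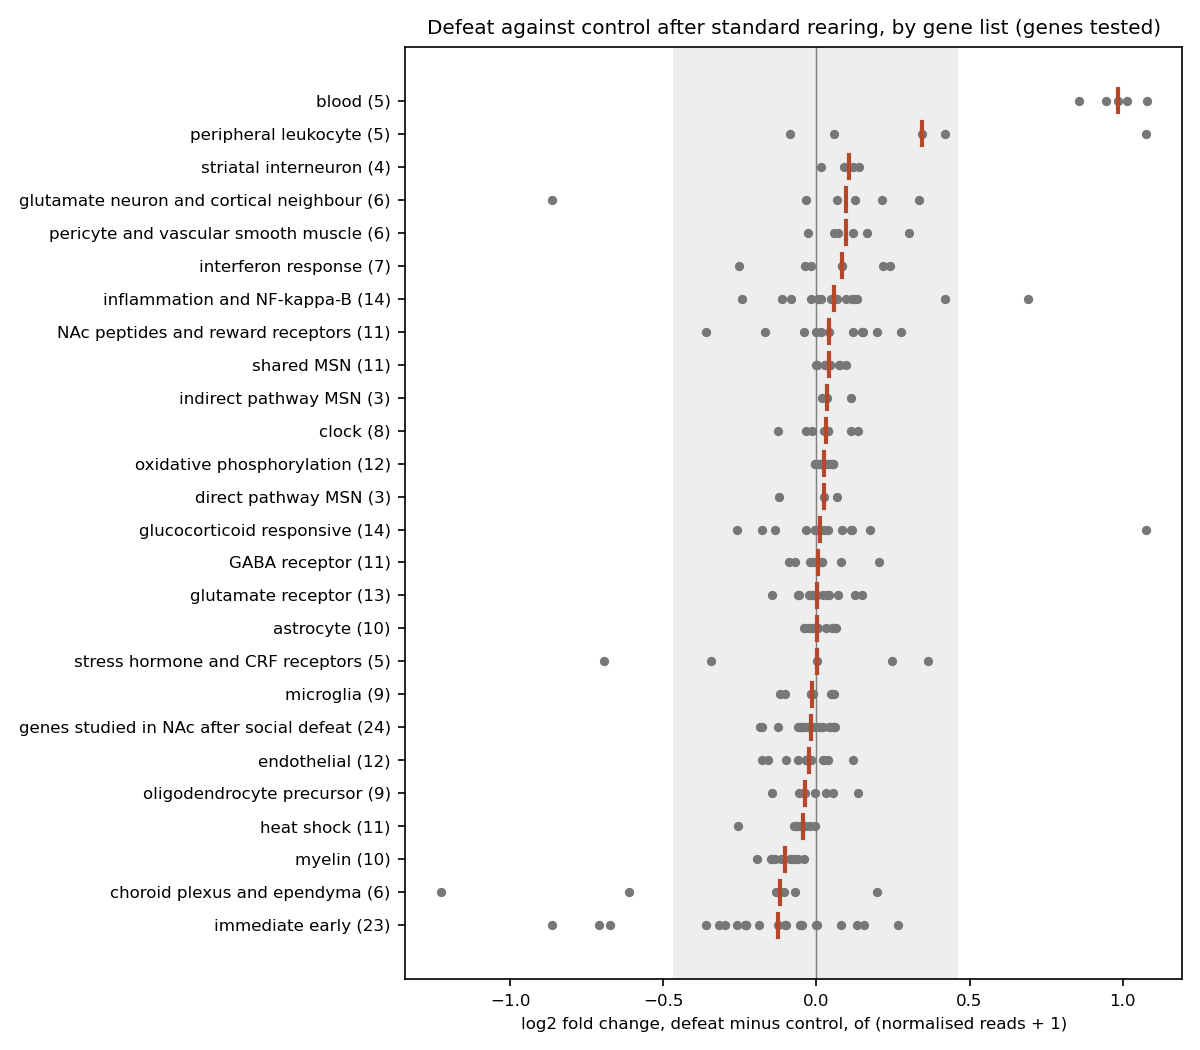
Log2 fold change of (normalised reads + 1), defeat minus control, for each tested gene of 26 lists (grey points), with the list median (bar), the number of genes tested in parentheses, and in grey shading the span from the 5th to the 95th percentile of all 14000 genes, -0.46 to 0.46. Blood genes lie together near 1 and the medians of the other lists lie between -0.13 and 0.34.

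By rule, the 10 genes of smallest p on each side were listed, passing over 7 unnamed gene models on the higher side and 15 on the lower. On the higher side these were the 4 globin genes, Alas2, Kcnj8, Dgcr6, Kcnk7, Pdxk-ps and Pkhd1. Dgcr6, a gene of the region homologous to the human DiGeorge deletion, had little spread: it lay at 673.9, 683.4, 695.9 and 661.0 normalised reads in the controls and between 705.3 and 781.6 after defeat, with no overlap and a log2 fold change of 0.14 ± 0.04. Kcnk7, a potassium channel family member, stood at 10.5 ± 5.21 (SD, n = 4) against 18.1 ± 4.98 (SD, n = 6). Pdxk-ps, a pseudogene, and Pkhd1 had no more than 8.42 and 2.81 normalised reads in any library.

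On the lower side the genes were Plat, Rnaset2a, Zfp954, Zfp607, Slc7a11, Slc18a1, Thap8, Ccin, Mrps36-ps2 and 7SK. Slc18a1, Thap8 and Ccin had no more than 8.95, 3.74 and 5.60 normalised reads in any library. Rnaset2a, a lysosomal ribonuclease with near copies, lay at 68.9, 57.4, 71.9 and 78.8 normalised reads in the controls and between 42.8 and 60.8 after defeat, with 5 of 6 under all controls. Slc7a11, the cystine-glutamate exchanger of astrocytes, which supplies cystine for glutathione, lay at 1252, 1491, 1247 and 1229 in the controls and between 1018 and 1361 after defeat, with 5 of 6 under all controls and a log2 fold change of -0.20 ± 0.07. Zfp954 stood at 349 ± 29.6 (SD, n = 4) against 305 ± 10.9 (SD, n = 6). Mrps36-ps2 and 7SK were at 0 in all 6 defeat libraries and at no more than 2.61 and 2.19 normalised reads in the controls, so no fold is given.

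The defeat difference after standard rearing was then set beside that after ELS, whose libraries and controls are other ones. With limma 0 of 14000 genes had a difference between the 2 defeat effects past an adjusted p of 0.05 for ELS P10-20 (0.00%; 550 unadjusted, 3.93%) and 0 for ELS P2-12 (0.00%; 844 unadjusted, 6.03%); edgeR also called 0 in both, with 570 and 789 unadjusted, and DESeq2 0 in both, with 372 and 621.

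The blood genes were on the higher side after defeat in each rearing condition. The list's median log2 fold change was 0.99 after standard rearing, 1.03 after ELS P10-20 and 0.53 after ELS P2-12, with 5 of 5 genes above 0 in each. Hbb-b1 was at 576 ± 62.8 (SD, n = 4) in controls and 1112 ± 211 (SD, n = 6) after defeat in ELS P10-20, and at 619 ± 177 (SD, n = 4) and 1043 ± 377 (SD, n = 5) in ELS P2-12. The difference of its defeat effect from standard rearing was 0.08 ± 0.35 for ELS P10-20 and 0.30 ± 0.35 for ELS P2-12. After ELS P2-12 the alpha globins and Alas2 had an unadjusted limma p above 0.05: Hba-a2 stood at 0.40 ± 0.27, Hba-a1 at 0.47 ± 0.26 and Alas2 at 0.53 ± 0.27. The differences of these from standard rearing were 0.68 ± 0.38 for Hba-a2, 0.48 ± 0.36 for Hba-a1 and 0.33 ± 0.38 for Alas2, and 0 of the 5 blood genes had an unadjusted p under 0.05 for the difference from either window.

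The immediate early genes were also lower after defeat in the ELS males, by more in the point estimate. The list median was -0.29 after ELS P10-20, with 19 of 23 below 0, and -0.34 after ELS P2-12, with 20 of 23. Fos stood at -1.17 ± 0.33 and -1.05 ± 0.35 there, against -0.68 ± 0.33 after standard rearing, and the differences between them were 0.49 ± 0.47 and 0.37 ± 0.48. An unadjusted limma p under 0.05 for the difference was reached by 2 of 23 for ELS P10-20 and 3 of 23 for ELS P2-12. Over all genes the shares were 3.93% and 6.03%. Trib1 was among them in both windows, at 0.16 after standard rearing and at -0.24 and -0.26 after ELS P10-20 and P2-12. In ELS P10-20 the groups did not overlap in Fos, with defeat libraries between 121.9 and 181.9 normalised reads and their controls between 231.2 and 564.9. The myelin list was lower in each condition too, with medians of -0.10, -0.13 and -0.13.

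Kcnj8 did not show the same size of difference elsewhere. After ELS P10-20 it stood at 0.10 ± 0.10 and after ELS P2-12 at 0.08 ± 0.10, but the difference of these from 0.30 was 0.20 ± 0.14 and 0.23 ± 0.14, so that a defeat effect on Kcnj8 particular to standard rearing was not shown. For Dgcr6 the difference of the defeat effect from ELS P2-12 was 0.19 ± 0.06, with a limma p of 0.0025 unadjusted and 0.76 adjusted. For that difference 6.03% of all genes had an unadjusted p under 0.05. Kcnj8 and Dgcr6 were named for a small p after standard rearing. That comparison is part of these differences, so they are no separate test.

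Of the 263 genes higher at an unadjusted p under 0.05 after standard rearing, 59.7% were also higher after defeat in ELS P10-20, where 48.2% of all genes were, and 50.6% in ELS P2-12, where 49.5% were. Of the 211 lower genes, 61.6% were lower in ELS P10-20 (51.5% of all genes) and 47.9% in ELS P2-12 (49.99%). Of all genes on the higher side after standard rearing, whatever their p, 52.8% were higher in ELS P10-20 and 47.1% in ELS P2-12, and of all on the lower side 56.5% and 47.3% were lower. Of the 14000 genes tested, 9 had an unadjusted limma p under 0.05 and the same side in all 3 rearing conditions. They are named after their values were seen. Hbb-b1 and its near copy Hbb-b2 and Il1r1 were higher, and Plat, Btg2, Egr2, Dusp1, the elongation factor Ell2 and the junction protein Amot were lower. At that level 3.30% of all genes were higher after defeat in ELS P10-20 and 3.44% in ELS P2-12, and 5.11% and 4.27% were lower. How many genes would meet all 3 at once without any effect was not tested. Il1r1 stood at 0.42, 0.40 and 0.43.

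**Figure D5:**
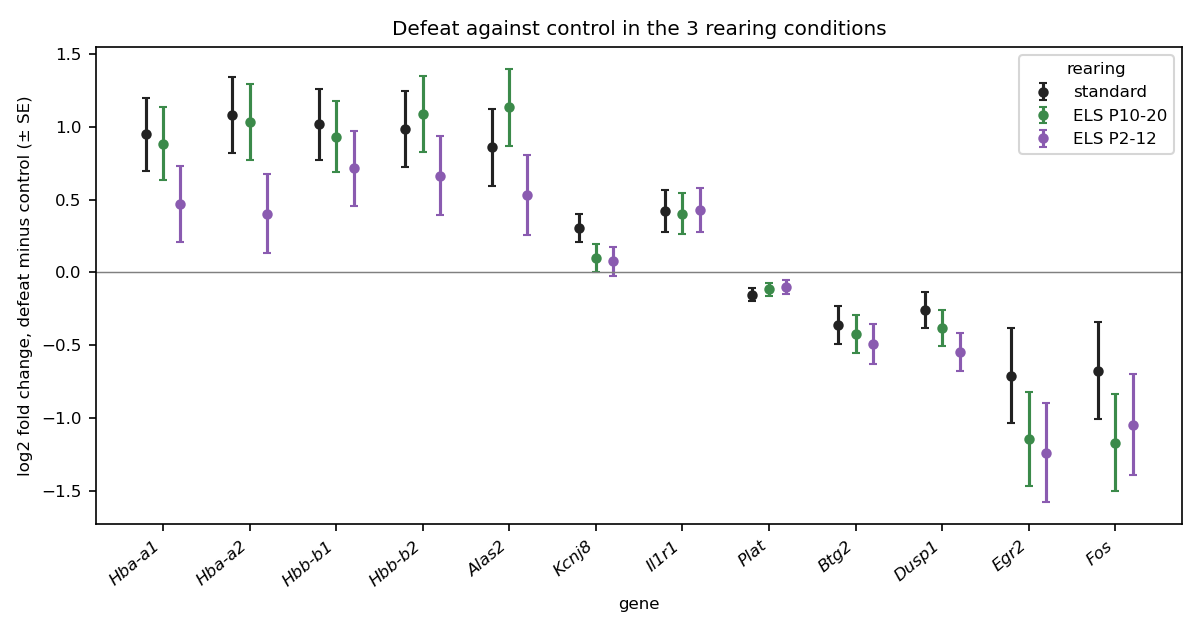
Log2 fold change of (normalised reads + 1), defeat minus control, with its SE, for 12 genes after standard rearing (6 against 4 libraries), ELS P10-20 (6 against 4) and ELS P2-12 (5 against 4). The 5 red cell genes and Il1r1 lie above 0 and Plat, Btg2, Dusp1, Egr2 and Fos below 0 in all 3 conditions, and Kcnj8 is highest after standard rearing.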

How the data were processed

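The authors deposited gene values for male NAc as a signal in normalised reads; per the labels' protocols the libraries were poly-A selected and unstranded, so a gene and its antisense partner cannot be told apart, and the submitters' processing notes name HISAT, HTSeq and build mm10 without versions. No source says how the scaling was done. Values of a library were whole multiples of 1 number (100% of values, tolerance 0.001), so whole reads could be recovered. Totals cover the genes of this table, not whole libraries. Symbols were matched for 16124 of 16239 genes.

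Limma 3.58.1 (trend, robust) was fitted to log2(value + 1) over all 29 male NAc libraries and 6 groups, for the 14000 genes of highest mean, with Benjamini-Hochberg adjustment; folds are on that scale and understate low genes. Alternatives used edgeR 4.0.16 and DESeq2 1.42.0 on the whole reads, in R 4.3.3; the code was tested on simulated data. Named genes are the 10 of smallest p on each side without clone names, and members of 27 lists. The members and lists were chosen with earlier results of these data known. No pair of libraries in a group agreed within sampling noise (lowest chi-square per gene 4.71).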

Additional observations from a re-analysis of the deposited data

Results flagged for a closer look

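Each named gene and list score was searched for a library far from the others of its group, by the gap to its nearest neighbour over the range of the group on the log2 scale. Of 110 groups examined 8 held such a library, where chance gives about 1 in 20. Control 2 was the highest control in Hbb-b2 (ratio 0.909, at 130.4 normalised reads against 77.7 to 81.4), in Slc7a11 (0.904) and in Mrps36-ps2 (0.845). Control 1 was the lowest in Plat (0.972, at 901.2 against 987.2 to 989.8). In the defeat group, defeat 5 was the lowest in Fosb (0.665) and defeat 4 the highest in Bhlhe41 (0.705). The ratio was 1 for Pkhd1 in control 3 and Thap8 in defeat 6, where the library held about 1 read and the others of its group held 0. The critical ratios are 0.829 for 4 and 0.625 for 6 libraries.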

How the results depend on the processing

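No gene was called for defeat against control under any of the 7 other settings or without any 1 of the 10 libraries. List medians moved by less than 1 SD of the list's score, but that SD can exceed the median itself. For the shared MSN list it was 0.16 against a median of 0.04. Over 18 alternatives the median changed its side of 0 in 9 for astrocyte genes and 4 for choroid plexus and ependyma. It did so in 3 each for microglia and the cortical list, and in 0 for the blood, immediate early and myelin lists. Counts moved with the filter, which also changed the number of genes tested. At a mean of at least 10 normalised reads 9569 genes were tested, against 14000 in the main fit. Of these 9569, 149 were higher and 103 lower at an unadjusted limma p under 0.05, and 17 were lower without overlap. With DESeq2 120 were higher at that level. Leaving out 1 library gave 67 to 139 genes higher and 42 to 101 lower without overlap, since fewer libraries overlap less often, and leaving out control 1 and defeat 5 together, chosen after seeing the data, gave 191 and 166. Without a filter 1 gene, Mrps36-ps2 (mean 0.659 normalised reads), differed in its defeat effect from ELS P2-12 (limma adjusted p = 0.0226, against 0.0757 with the filter). Fosb ranged from -0.32 to 0.039 over the libraries left out, above 0 without control 3; the cause was not tested. Without 1 library the globins kept an unadjusted limma p of at most 0.00516, while Fos ranged from -0.90 to -0.42 and Egr2 from -0.95 to -0.47. No paired analysis was possible because the labels of the NAc samples carry no replicate numbers; those used here follow accession order. With 4 and 6 pools, genes of a few reads are not resolved.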
